A study of Homo sapiens with 12 samples.

Results

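The genes described here are 10 receptor tyrosine kinases that recur in work on sarcomas and other mesenchymal tumours: EGFR, ERBB2, ERBB3, MET, PDGFRA, PDGFRB, FGFR1, IGF1R, KIT and EPHA2. They were taken from a fixed list and matched by symbol to the RefSeq gene table of GRCh38, where all 10 were found. A peak summit was counted for a gene when it lay inside the gene or within 10 kb of it, which gave 102 of the 188019 summits in the deposited list, in 82 of its 91278 intervals. No summit counted for more than 1 of the 10 genes. The measurement was ATAC-seq, in which a transposase cuts accessible DNA, on HT1080, an established human fibrosarcoma line. Cells had spent 48 h in rat tail collagen at 0.3, 1 or 1.7 mg/mL, with 4 libraries at each of the 3 concentrations. All 12 libraries shared the matrix metalloproteinase inhibitor GM6001 at 20 µM, so no group without the inhibitor is part of the series.

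The only deposited values analysed were those of 1 peak list pooled over all libraries, with no value for any library or concentration. Nothing below is therefore a comparison between collagen concentrations, no value has replicates, no test between groups was run, and the depth per library is unknown. In a pooled bulk list, fewer cells with an open site and less access per cell cannot be told apart. Every gene and site is described by the authors' enrichment, the fold of fragments at a summit over the local background, and by the pileup, the number of overlapping fragments recovered from that enrichment and its p-value. A start-site summit lies within 1000 bp of a listed RefSeq transcription start or, for a gene with no listed start, of either gene end. A summit more than 1000 bp from every such position of the protein-coding genes is called distal. Starts absent from the listing were not examined, so a distal summit may lie at one of them. Of markers of the labelled cell type, 8 of 11 mesenchymal genes had a start-site summit, near the 65.9% of all protein-coding genes, with FN1 at an enrichment of 15.1, COL5A1 at 11.0 and SPARC at 9.96. ZEB2, COL1A1 and THY1, named after their values were seen, had none. COL1A1 and THY1 had no listed start, so that only their gene ends were examined. Of the 8 mesenchymal markers with a listed start, 7 had a start-site summit. Among epithelial markers 1 of 8 had such a summit, EPCAM at 2.11, but 7 of the 8 had no listed start, EPCAM included, so that only their gene ends were examined. Of the epithelial markers 7 of 8 had a summit in the gene or within 10 kb, and ESRP1 had none. Their strongest distal enrichments had a median of 12.5, against 7.22 for the mesenchymal markers, with CLDN4 at 16.4 and EPCAM at 15.9, both named after their values were seen. Among blood and endothelial markers 2 of 8 had a start-site summit, CD3E at 14.5 and SPI1 at 8.44, both at an end of a gene with no listed start.

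Receptor tyrosine kinases are single-pass membrane proteins whose extracellular part binds a ligand and whose intracellular kinase then phosphorylates tyrosines on the receptor and on adaptor proteins, which pass the signal to the RAS, PI3K and STAT pathways. EGFR, ERBB2 and ERBB3 belong to the ERBB family, in which ERBB2 has no known ligand of its own and ERBB3 has little kinase activity, so that both work as partners in dimers. MET binds hepatocyte growth factor, IGF1R binds insulin-like growth factors, FGFR1 binds fibroblast growth factors and EPHA2 binds ephrins on neighbouring cells. PDGFRA, PDGFRB and KIT belong to the platelet-derived growth factor receptor family, which is typical of fibroblasts, pericytes and, for KIT, mast cells, melanocytes and germ cells.

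Promoter sequences are shown for the receptors at the extremes of start-site accessibility. RefSeq (GRCh38.p14) listed 10 start sites for 8 of the 10 genes, and ERBB3 and FGFR1 had no entry. The runs below are the 250 bases before the start site, 5′ to 3′ on the strand of the gene. Capitals mark matches, on either strand, to 8 short motifs: the GC box GGGCGG, the CRE TGACGTCA, the AP-1 motif TGANTCA, the E-box CACGTG, the TATA box TATAAA, the TEAD motif GGAATG, the CCAAT box CCAAT and the ETS motif CCGGAAGT. The first group, MET (chr7:116671946-116672195, plus strand), ERBB2 (chr17:39687844-39688093, plus strand), EGFR (chr7:55018767-55019016, plus strand) and IGF1R (chr15:98648289-98648538, plus strand), had the strongest summits at listed start sites, and each summit lies within the bases shown.
MET: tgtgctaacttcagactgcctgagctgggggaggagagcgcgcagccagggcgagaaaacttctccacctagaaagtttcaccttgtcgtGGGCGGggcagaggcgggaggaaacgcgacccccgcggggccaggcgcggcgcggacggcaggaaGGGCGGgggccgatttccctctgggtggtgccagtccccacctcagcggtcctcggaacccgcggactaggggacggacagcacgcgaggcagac
ERBB2: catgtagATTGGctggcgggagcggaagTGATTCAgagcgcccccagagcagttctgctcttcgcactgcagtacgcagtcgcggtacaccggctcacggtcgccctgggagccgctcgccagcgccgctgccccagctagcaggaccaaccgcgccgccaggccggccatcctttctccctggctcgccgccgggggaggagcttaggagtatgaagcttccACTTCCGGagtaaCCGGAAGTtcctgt
EGFR: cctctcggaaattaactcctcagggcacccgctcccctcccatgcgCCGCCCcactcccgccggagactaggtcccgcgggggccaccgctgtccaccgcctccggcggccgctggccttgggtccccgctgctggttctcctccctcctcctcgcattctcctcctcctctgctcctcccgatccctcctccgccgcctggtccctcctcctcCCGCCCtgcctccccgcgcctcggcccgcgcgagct
IGF1R: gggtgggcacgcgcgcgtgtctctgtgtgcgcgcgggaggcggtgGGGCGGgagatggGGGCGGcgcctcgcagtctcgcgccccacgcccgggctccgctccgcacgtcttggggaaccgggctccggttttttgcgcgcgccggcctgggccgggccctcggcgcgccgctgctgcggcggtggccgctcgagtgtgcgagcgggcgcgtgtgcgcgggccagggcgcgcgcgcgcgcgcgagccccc

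The second group had the weakest signal at a listed start site or none. It comprises PDGFRB (chr5:150155846-150156095, minus strand), KIT (chr4:54657707-54657956, plus strand) and the outer of the PDGFRA start sites (chr4:54229043-54229292, plus strand). The inner start site of EGFR (chr7:55109589-55109838, plus strand), which also lacked a summit within 1000 bp, is shown beside them because its composition differs from that of the outer one.
PDGFRB: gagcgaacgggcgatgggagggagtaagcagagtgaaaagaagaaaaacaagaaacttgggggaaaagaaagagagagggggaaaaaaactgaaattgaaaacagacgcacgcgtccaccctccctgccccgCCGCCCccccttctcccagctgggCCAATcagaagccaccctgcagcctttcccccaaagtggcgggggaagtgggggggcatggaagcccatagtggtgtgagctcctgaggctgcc
KIT: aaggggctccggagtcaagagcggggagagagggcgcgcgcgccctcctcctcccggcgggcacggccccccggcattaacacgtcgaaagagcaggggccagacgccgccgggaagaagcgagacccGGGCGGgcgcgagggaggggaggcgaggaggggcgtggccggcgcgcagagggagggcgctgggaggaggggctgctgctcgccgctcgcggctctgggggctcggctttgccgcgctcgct
PDGFRA outer start: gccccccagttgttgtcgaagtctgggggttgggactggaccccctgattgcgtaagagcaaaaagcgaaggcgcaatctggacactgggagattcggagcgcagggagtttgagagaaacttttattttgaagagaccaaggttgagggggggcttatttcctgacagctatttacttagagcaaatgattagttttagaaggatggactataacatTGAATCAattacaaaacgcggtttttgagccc
EGFR inner start: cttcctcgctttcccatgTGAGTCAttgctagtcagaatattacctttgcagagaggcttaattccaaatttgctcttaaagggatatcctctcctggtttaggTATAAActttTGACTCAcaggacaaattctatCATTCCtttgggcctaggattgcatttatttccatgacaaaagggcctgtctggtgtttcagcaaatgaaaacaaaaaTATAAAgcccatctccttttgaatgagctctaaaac

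Summits near a start site or a gene end were found throughout the set, but their strength ranged widely. All 10 genes had a summit within 1000 bp of a start site or, for ERBB3 and FGFR1, of either gene end, where 65.9% of all 20037 protein-coding genes did. All 10 also had a summit in the gene or within 10 kb, where 89.8% of protein-coding genes did. The strongest start-site enrichment per gene had a median of 10.0 over the 10 genes (lowest 2.95, highest 17.2), against 11.9 over the 13207 protein-coding genes with such a summit. The order from high to low was ERBB3, ERBB2, MET, EGFR, IGF1R, FGFR1, PDGFRA, EPHA2, PDGFRB and KIT. The first place of ERBB3 rests on a summit past its upper end, 149 bp from the start of PA2G4. Without that summit ERBB3 had 8.01, and the median over the 10 genes was 8.75. With 1 pooled value per gene and no replicate spread, neighbours in this order cannot be said to differ.

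ERBB2, the partner receptor amplified in some carcinomas, spans 39688094 to 39728658 on chromosome 17. Its start-site summit reached 16.2-fold enrichment, from 1246 fragments where the local background was 75.9, in an interval of 597 bp. That enrichment is above those of 86.9% of protein-coding genes with a start-site summit. The summit lay 137 bp before the ERBB2 start and 100 bp from the start of PGAP3, a gene of GPI-anchor remodelling on the opposite strand, so its fragments cannot be assigned to either gene. Were it counted for the nearer gene alone, ERBB2 would have no start-site summit and 9 of the 10 genes would have one. The promoter holds 2 ETS matches in opposite orientation, which begin 27 and 14 bases before the start, where 5.34% of the 22199 coding promoters hold any. Inside ERBB2, 4 further summits were weak to moderate, with enrichments of 6.10, 2.05, 2.19 and 1.87. Only 1 start was listed for ERBB2, and whether any of these summits lies at another start of the gene was not examined. A strong summit past its other end, at 14.5-fold enrichment and 940 fragments, lay 25 bp from the start of MIEN1, the neighbouring gene.

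EGFR, the receptor for epidermal growth factor and transforming growth factor alpha, spans 55019017 to 55211628 on chromosome 7 and held 23 summits in 19 intervals. Of these 23 summits, 12 had an enrichment under 3, and 13 had a −log10 q of at least 10. Its outer start site reached 12.1-fold enrichment with 568 fragments, and the summit lay 38 bp before the start and 57 bp from the start of the noncoding gene LOC105375284 on the opposite strand. This value sits near the middle of protein-coding genes with a start-site summit, of which 51.1% were lower. At the inner start site, which lies inside the gene, no summit lay within 1000 bp, and the nearest was 12.6 kb away. A series of strong sites lay inside the gene at 33.3 kb (enrichment 12.0), 46.3 and 46.8 kb (8.21 and 8.90), 55.1 kb (16.0) and 67.8 kb (8.56) from the outer start. The site at 55.1 kb exceeded the start site in both enrichment and pileup (1084 fragments). Another pair of summits at 113.9 and 114.9 kb shared an interval of 1572 bp and had the largest pileup of the gene, 1542 fragments, over a raised background of 165.6, so that its enrichment was only 9.26. At 167.4 kb a summit inside the noncoding gene EGFR-AS1 had 1084 fragments and an enrichment of 15.2. The 5 summits in the 10 kb past the end of EGFR were all weak, from 1.66 to 2.39.

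ERBB3, the neuregulin receptor, spans 56080108 to 56103505 on chromosome 12 and held 6 summits. At its lower-coordinate end 1 interval of 1340 bp carried summits of enrichment 8.01 (pileup 657) and 7.06 (pileup 578), which lay 73 and 873 bp from that end. The highest value of the gene, 17.2-fold enrichment from 3334 fragments, came from a summit 905 bp past the upper end. That summit was 149 bp from the start of PA2G4, a gene for an ERBB3-binding protein, and 9 bp from the start of the noncoding gene LOC105369782. Without it, and equally within 500 bp of the gene ends, the highest value at an end of ERBB3 was 8.01, and ERBB3 falls from the first place in the order to the sixth. The other 3 summits of ERBB3 had enrichments of 4.56, 1.69 and 1.83.

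MET, the receptor for hepatocyte growth factor, spans 116672196 to 116798377 on chromosome 7 and held 9 summits, each in its own interval. Its start site had an enrichment of 14.4 and, with 2108 fragments, the highest pileup of any summit at a start site listed for the 10 genes. The summit lay 39 bp before the start, inside the overlapping noncoding gene COMETT, and its local background was 145.3 fragments. The strongest distal site of the whole set lay inside MET at 44.6 kb, at 16.8-fold enrichment and 1407 fragments. A further site at 34.6 kb had an enrichment of 10.7 but only 252 fragments, over a background of 22.7. Between 44.6 and 100.5 kb no summit was present, the longest empty stretch of the gene at 55.9 kb, and 3 sites from 100.5 to 114.8 kb had pileups of 154, 297 and 167 fragments. MET had no summit with an enrichment under 3, whereas 36 of all 102 summits were under 3. The share under 3 among summits at all protein-coding genes was not counted.

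IGF1R, the receptor for insulin-like growth factors, spans 98648539 to 98964530 on chromosome 15, is the longest gene of the set and held 23 summits in 17 intervals. At the start site 1 interval of 1523 bp carried summits of enrichment 10.5 (pileup 834) at 174 bp and 5.17 (pileup 411) at 997 bp before the start. The antisense noncoding gene IRAIN overlaps both. Strong distal sites lay at 79.3 kb (enrichment 13.5), 225.5 kb (10.4), 241.8 kb (9.87) and 248.6 kb (14.9) from the start. The site at 248.6 kb, with 989 fragments, exceeded the start site in enrichment and pileup. Sites were absent from the last part of the gene, where 67.6 kb up to the edge of the window held no summit.

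FGFR1, a fibroblast growth factor receptor, spans 38411143 to 38468635 on chromosome 8 and held 9 summits in 9 intervals. At its upper end a summit 17 bp from the gene boundary reached 9.48-fold enrichment with 527 fragments. At its lower end, which the noncoding gene LOC102723716 overlaps, the summits within 1000 bp had enrichments of 2.76 and 1.76. The strongest distal site, with 448 fragments and an enrichment of 8.75, lay 5.77 kb past that lower end, inside the neighbouring gene LETM2. Within the gene, a site 9.32 kb from the upper end followed with 8.13.

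EPHA2, a receptor for ephrin A ligands, spans 16124337 to 16156069 on chromosome 1 and had the densest signal of the set. Its 13 summits in 7 intervals amounted to 25.1 per 100 kb of gene and flanks, above 98.2% of protein-coding genes. With each interval counted once EPHA2 had 7, or 13.5 per 100 kb, above 92.2%, and with summits of −log10 q of at least 10 it also had 7, above 94.3%. The start-site summit lay 1 bp before the start and had a modest enrichment of 5.98, with 397 fragments over a background of 65.6. A second summit of the same 1666 bp interval, 925 bp inside the gene and 71 bp from the start of EPHA2-AS1, had an enrichment of 2.38. The strongest site lay 8.34 kb before the start, inside EPHA2-AS1, with 974 fragments and an enrichment of 13.6, which is 2.27 times the start-site enrichment. Inside the gene, intervals at 9.64 to 10.3 kb and 16.4 to 17.0 kb from the start carried summits of 4.59 to 7.09 in enrichment. The other 6 summits, 3 of them past the end of the gene, were between 1.67 and 2.23. No EPHA2 summit had a local background under 34.8 fragments, compared with a lowest value of 20.3 in the list. The EPHA2 promoter holds a CRE match that begins 51 bases before the start, where 2.26% of coding promoters hold one.

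PDGFRA, the alpha receptor for platelet-derived growth factors, spans 54229293 to 54298245 on chromosome 4 and held 4 summits. No summit lay within 1000 bp of its outer start site, and the nearest was 4.20 kb away. At its inner start site a single interval of 1940 bp, the longest of the set, carried summits 470 bp before and 415 bp after the start, with enrichments of 6.23 (pileup 204) and 2.44 (pileup 80). The remaining summits lay deep in the gene at 48.6 and 52.3 kb from the outer start, with enrichments of 4.40 and 5.69. PDGFRA thus had a start-site summit only at the inner start, and counting gene ends in place of listed starts left it with none.

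PDGFRB, the beta receptor for the same ligands, spans 150113839 to 150155845 on chromosome 5 and held 6 summits. Its start-site summit lay 10 bp before the start, at 3.70-fold enrichment with 128 fragments, and 12.3% of protein-coding genes with a start-site summit were lower. Distal sites were stronger than the start site, with enrichments of 6.08 at 12.7 kb and 5.55 at 25.7 kb inside the gene and of 5.40 at 5883 bp before it. A summit past the end of PDGFRB, with 173 fragments and an enrichment of 5.42, lay 595 bp from a start of CSF1R, the receptor for colony stimulating factor of macrophages, a gene that lies 474 bp beyond PDGFRB.

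KIT, the stem cell factor receptor, spans 54657957 to 54740715 on chromosome 4 and had the weakest start site and the fewest summits of the 10 genes. Its 3 summits all lay in the first 3.89 kb of the gene. The only summit within 1000 bp of the start lay 867 bp inside the gene, at 2.95-fold enrichment with 76 fragments. Within 500 bp of the start KIT had no summit. The other summits, 3.52 and 3.89 kb into the gene, had enrichments of 3.95 and 4.95. From there to the edge of the window 88.9 kb held no summit, and the density of 2.92 per 100 kb was above that of 26.5% of protein-coding genes.

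**Figure D1:**
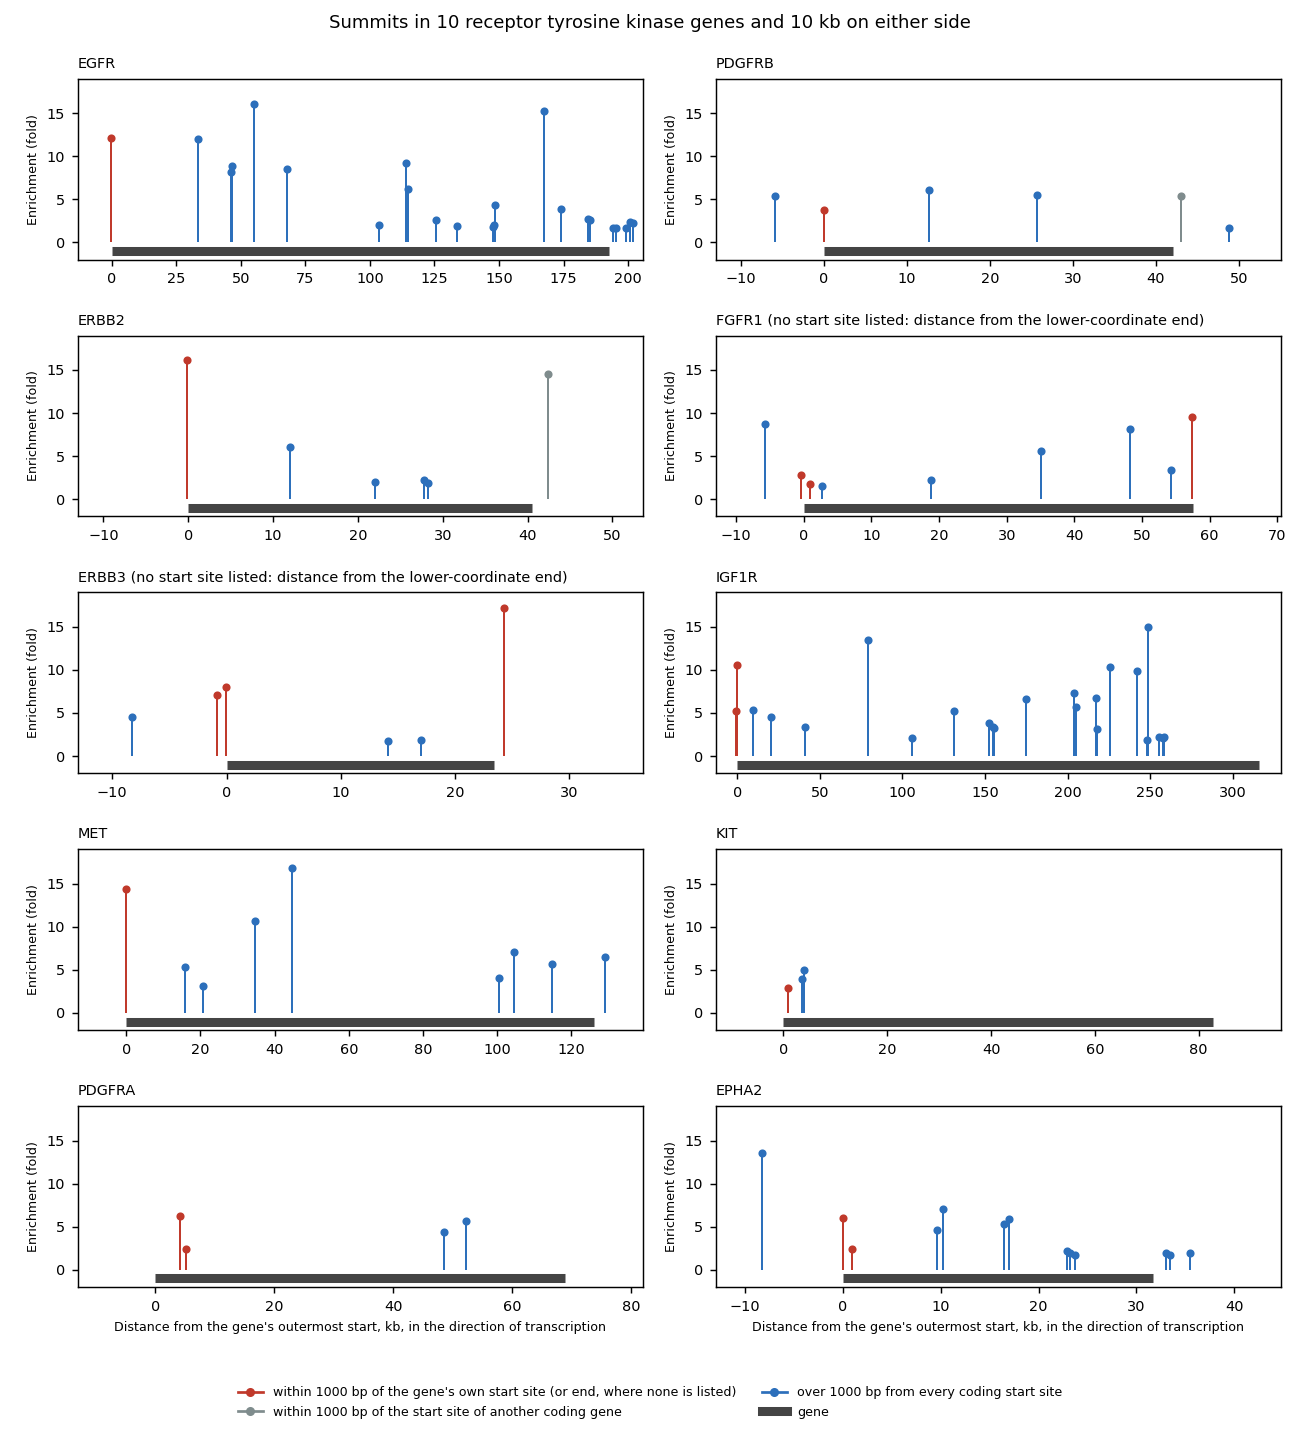
Each panel plots the summits of 1 gene and of 10 kb on either side, with distance from the outermost start on the x axis (kb; for ERBB3 and FGFR1 from the lower-coordinate end) and the authors' enrichment (fold) on the y axis. Red stems are start-site summits, grey stems lie at the start of another coding gene and blue stems are distal. EGFR and IGF1R carry 23 summits each along the gene, while KIT carries 3, all near its start.

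The median window of the 10 genes, gene plus flanks, was 83.2 kb against 44.1 kb over all protein-coding genes, and the median number of summits was 7.5 against 3. Per 100 kb the medians were 9.79 and 5.89. Across the 10 genes, window length and summit number had a Pearson's r of 0.81 and a Spearman's rho of 0.36, given as a description. The points share 1 list, and EGFR and IGF1R, with the longest windows, held the most summits. KIT, with the fourth longest window, had the fewest summits, and EPHA2, with the second shortest, had the third most.

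The share of distal sites at these receptors was near that at all protein-coding genes, and in 6 of the 10 genes the strongest distal site exceeded the start site. Of the 102 summits, 83 were distal (81.4%, exact 95% interval 72.4 to 88.4, counting error only), against 77.9% of the 68749 summits at all protein-coding genes. Of the distal summits 69 lay inside the gene and 14 in the flanks. Another 11 summits lay at listed start sites of the 10 genes, 6 at the ends of ERBB3 and FGFR1, and 2 at the starts of MIEN1 and CSF1R. The genes with a distal summit above their start site were EGFR (16.0 against 12.1), MET (16.8 against 14.4), IGF1R (14.9 against 10.5), EPHA2 (13.6 against 5.98), PDGFRB (6.08 against 3.70) and KIT (4.95 against 2.95). Among the 10576 protein-coding genes with both kinds of summit, the distal one was higher in 32.6%. That share is over genes of all lengths, and the windows of the 10 genes were longer than the median, so longer windows and a stronger distal signal cannot be told apart here.

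**Figure D2:**
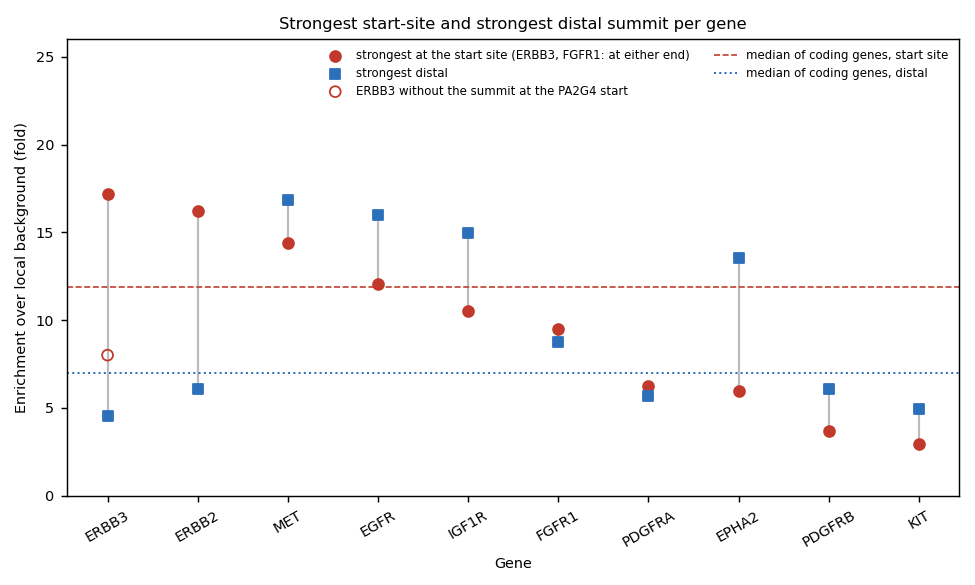
The y axis gives the authors' enrichment (fold) and the x axis the 10 genes, ordered by their strongest start-site summit (red circles); blue squares are the strongest distal summits, the open circle is ERBB3 without the summit at the PA2G4 start, and the lines mark the medians of protein-coding genes. The squares lie above the circles for MET, EGFR, IGF1R, EPHA2, PDGFRB and KIT.

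In strength the 4 genes MET, EGFR, IGF1R and EPHA2 stood at the top of the distal order. Their strongest distal summits exceeded those of 98.5%, 97.0%, 94.2% and 89.0%, respectively, of the 15107 protein-coding genes with a distal summit. Each is the highest of 8 distal summits in MET, 22 in EGFR, 21 in IGF1R and 11 in EPHA2. A highest value tends to rise with the number of summits, which was not matched across genes. FGFR1 followed with 8.75, above 63.0%, and the values of ERBB2, PDGFRB, PDGFRA, KIT and ERBB3 were between 4.56 and 6.10, below the median of 7.00 for protein-coding genes. Of the 15 summits with an enrichment of at least 10, 9 were distal. All 9 belonged to EGFR, MET, IGF1R and EPHA2, which follows from the order, as no other gene had a distal summit above 8.75. The share of summits with at least 10 at all protein-coding genes was not counted. The median enrichment of all 102 summits was 4.58 (95% interval of the median 3.38 to 5.61, over summits), close to the 4.34 of summits at all protein-coding genes. In pileup the medians were 127 and 129 fragments.

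Enrichment joins pileup and local background, and summits of the 10 genes differed in both. The local background was at the lowest value of the list, 20.3 fragments, for 15 of the 102 summits and reached 192.8 at the summit between ERBB3 and PA2G4. How many summits at all protein-coding genes had that lowest value was not counted. A high background lowers the enrichment for the same pileup. The start site of MET had 2108 fragments against 1246 at that of ERBB2, but an enrichment of 14.4 against 16.2. The median pileup was 111 at the 83 distal summits and 411 at the 19 others.

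**Figure D3:**
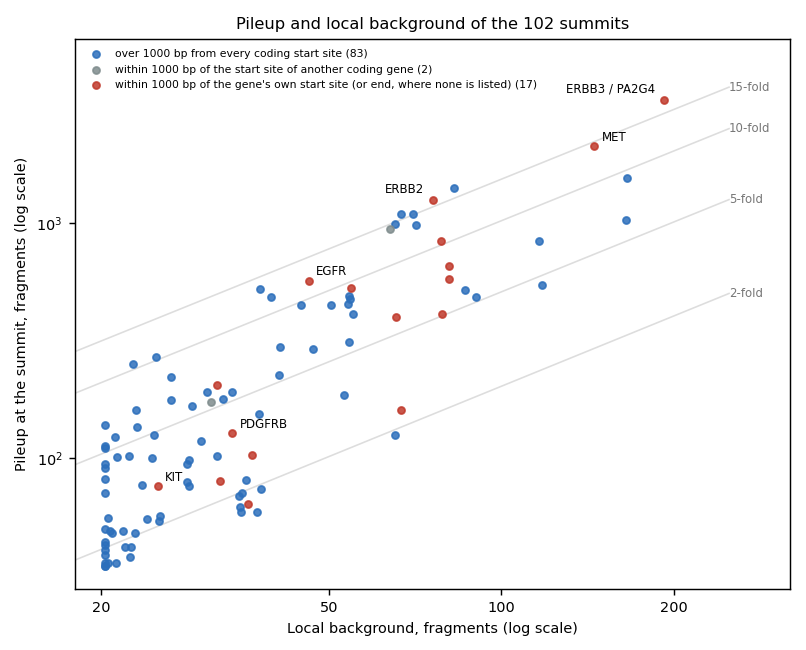
Each point is 1 of the 102 summits, with the local background on the x axis and the pileup on the y axis, both in fragments on log scales; grey lines mark equal enrichment and colours mark the kind of site. The start sites of MET and ERBB2 and the summit shared by ERBB3 and PA2G4 lie at the upper edge, and the start sites of KIT and PDGFRB lie among the distal sites.

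The 300-base windows, 250 bases before and 50 after each start, had a median GC content of 65.5% over the 10 start sites and 62.3% over 22199 coding promoters. The ratio of observed to expected CpG had medians of 0.86 and 0.74. The start sites without a summit within 1000 bp were those with the lowest GC content, the inner start of EGFR at 42.0% and the outer start of PDGFRA at 47.0%. IGF1R had the highest GC content, 79.7%, above 96.2% of coding promoters. KIT, whose start-site summit was the weakest, had a GC content of 74.3%, close to the 75.3% of the outer EGFR start, and ERBB2, with the strongest summit at a listed start, had 60.7%.

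Matches to the GC box, the short motif bound by SP1, were found in 7 of the 10 windows, and 56.3% of coding promoters held one. The windows without a match were those of ERBB2, the inner EGFR start and the outer PDGFRA start. AP-1 matches were found in 3 windows, 2 in the inner EGFR start, 1 in ERBB2 and 1 in the outer PDGFRA start, where 6.15% of coding promoters held any. A TATA box was matched in 1 window, the inner EGFR start, with 2 matches (9.47% of coding promoters). A CCAAT box was matched in ERBB2, PDGFRB and the inner PDGFRA start (34.7%), a TEAD motif in EPHA2 and the inner EGFR start (12.2%) and an E-box, 3 bases after the start, in MET (8.34%). These are matches of letters and say nothing of whether a factor is bound.

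**Figure D4:**
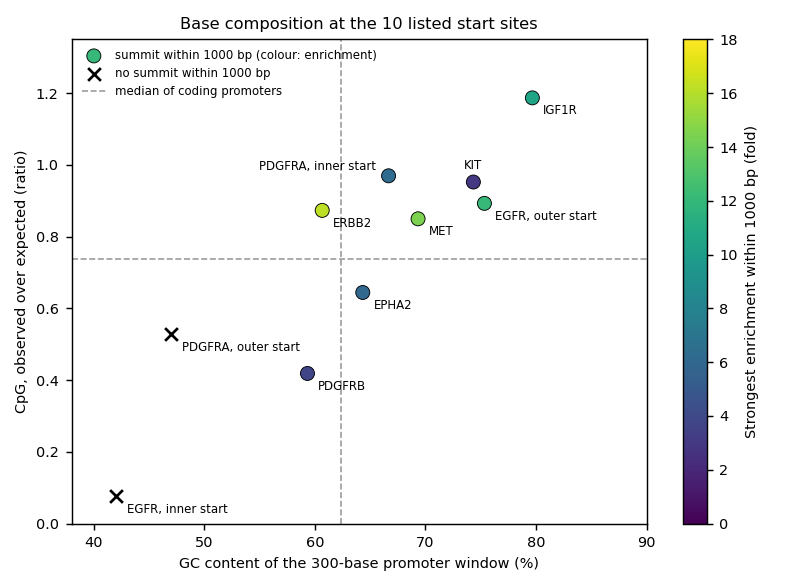
The x axis gives the GC content (%) and the y axis the ratio of observed to expected CpG in the 300-base windows of the 10 listed start sites; colour is the strongest enrichment within 1000 bp, crosses are start sites with no such summit and dashed lines are the medians of coding promoters. The crosses lie at the lowest GC contents, 42.0% and 47.0%.

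Genes of the signalling pathway around the 10 receptors were counted by the same rule, and each count can be set beside the 65.9% of all protein-coding genes with a start-site summit. In each of the 4 lists 4 genes had no listed start, so that their gene ends were examined instead. Of 44 other receptor tyrosine kinases, 25 had a start-site summit, with a median strongest enrichment of 5.42. The highest were the ephrin receptors EPHB3 (16.5), EPHB1 (13.4) and EPHA4 (12.7), and EPHA7 had no summit in the gene or within 10 kb. In 18 of the 23 other receptors with both kinds of summit the distal one was higher, compared with 6 of the 10 genes described above and 32.6% of protein-coding genes. The median window of these 44 genes was 115.5 kb.

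Of 29 ligand genes 11 had a start-site summit, with a median of 6.27. TGFA, a ligand of EGFR, was at 15.8, FGF1, a ligand of fibroblast growth factor receptors, at 14.2, and KITLG, the ligand of KIT, at 11.8. No summit lay in or within 10 kb of FGF10, FGF7 or IGF1. HGF, the ligand of MET, named after its values were seen, had no start-site summit and 1 distal summit with an enrichment of 2.58.

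Among 21 adaptors and effectors 20 had a start-site summit, with a median of 12.9. STAT3, a transcription factor activated by several of the receptors, had 18.3, and SOS2, an exchange factor for RAS, had 16.6. The kinase SRC, named after its values were seen, has no listed start and lacked a summit at its gene ends. Of 20 negative regulators 18 had one, with a median of 12.4, led by the phosphatase PTPN1 at 17.7, the receptor inhibitor LRIG1 at 17.6 and the ubiquitin ligase CBLB at 16.3. DUSP6, a phosphatase of ERK, had no summit in the gene or within 10 kb. No test between these lists was run.

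**Figure D5:**
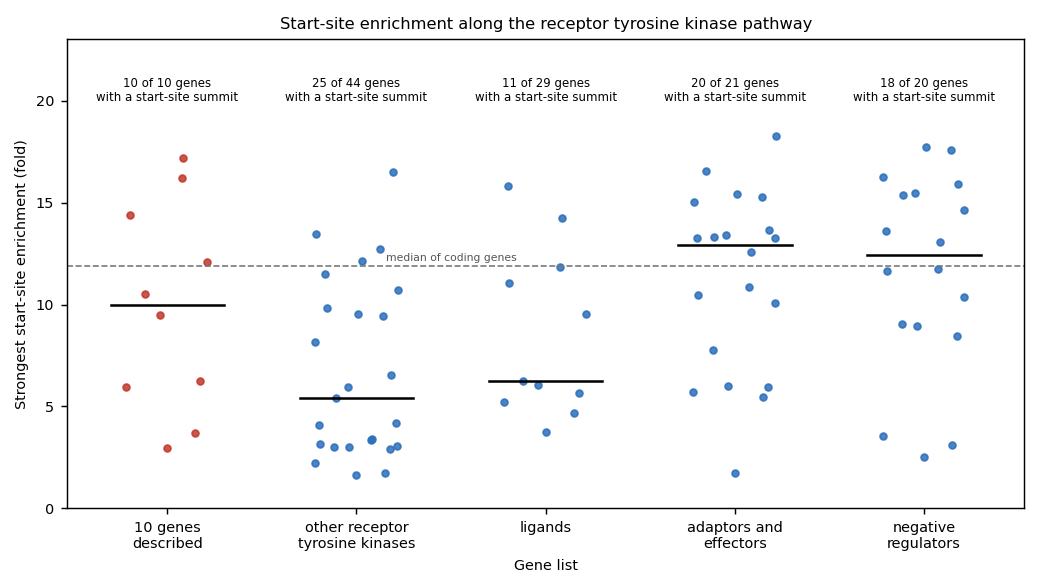
The y axis gives the strongest start-site enrichment (fold) of each gene with a start-site summit, and the x axis gives the 10 genes described (red) and the 4 pathway lists (blue), with black bars at the medians and a dashed line at the median of protein-coding genes. The medians of adaptors and effectors, 12.9, and negative regulators, 12.4, lie above the line, and those of the ligands, 6.27, and the other receptors, 5.42, lie below it.

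The limit of 10 kb around each gene set which flanking sites were counted. Just inside it lay a summit 9.15 kb past the end of EGFR with an enrichment of 2.30, and just outside it lay summits 11.4 kb from PDGFRA with an enrichment of 6.61 and 11.5 kb from MET with 3.89.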

How the data were processed

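The members and gene lists were chosen with earlier results of these data known. The series holds 12 ATAC-seq libraries, and the deposited file was 1 peak list with no library column. It was taken as pooled over all of them because its peak names begin with the word all; no source states which libraries entered it. Per the labels' protocols, cells were freed from the gel with collagenase, frozen and thawed before transposition. Per the submitters' processing notes, fastp 0.20.0, Bowtie2 2.4.3, SAMtools, deepTools 3.5.0 and MACS2 2.2.7.1 are named, without role or order, with build hg38; filters, duplicate handling and the pooling steps are not given in the sources used here. The deposited columns were a score, a fold enrichment (ratio) and −log10 p and q values (lowest −log10 q 1.30), as the layout of the columns gives them. In 99.8% of lines the score was the −log10 q times 10, truncated.

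Pileup and local background were solved from enrichment and p, taking enrichment as (pileup + 1)/(background + 1) and p as a Poisson tail. No source states this model, and the unit counted is taken here to be the fragment. The model gave a whole pileup, within 0.05, in 99.96% of lines, and the procedure was tested on simulated data. Gene positions and start sites came from RefSeq tables (GRCh38.p14). A start was listed for 79.1% of protein-coding genes; both ends stood in for the others. Exon boundaries and genome sequence were not used. Intervals are exact binomial, or order statistics for medians, and cover counting error or the spread over summits only. Named pathway genes were the 3 of each list with the highest start-site enrichment and up to 3 without any summit. A gene that this rule names is not reported here. Alternatives changed the gene window, start window, q limit, interval length, overlap rule and counting unit. Python 3.11.15, pandas 2.3.3 and scipy 1.17.1 were used.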

Additional observations from a re-analysis of the deposited data

How the results depend on the processing

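All 10 genes kept a summit in the gene or flanks under each of the 5 alternatives run for that count, and 9 or 10 kept a start-site summit under the 8 run for that one: KIT lost it with a start window of 500 bp, PDGFRA when gene ends replaced listed starts, and ERBB2 when summits nearer another coding gene's listed start were left out for all genes. A −log10 q of at least 10 left 72 of the 102 summits and raised their median enrichment from 4.58 to 5.94. With the gene body only, 75 summits were left, of which 92% were distal. That setting removes by position the start-site summits that lie before the start, as at EGFR, ERBB2, MET, PDGFRB, IGF1R and EPHA2. A window of 50 kb gave 153 summits and raised the median strongest distal enrichment of the 10 genes from 7.43 to 11.2. It also raised the number of genes whose strongest distal summit exceeded the start site from 6 to 8. A start window of 500 bp gave 5, because KIT then had no start-site summit to compare and left that count. Leaving out summits nearer another coding gene's listed start, only for genes with no listed start, changed the highest ERBB3 value from 17.2 to 8.01. The 500 bp start window also gave 8.01. That leaving out changed the median over the 10 genes from 10.0 to 8.75, and when done for all genes the median over the 9 left was 8.01. Both forms of leaving out were chosen after seeing the data. Of the alternative values of the summaries, 75 stayed within the interval of the reported value or, for counts, within 1.5 times of it, and 2 did not: the median enrichment of 5.94 and the distal share of 92%. For single genes, 174 alternative values stayed and 23 moved. Both tallies include a limit of 10 kb on interval length. That limit could change no value of the 10 genes, whose longest interval was 1940 bp. A wider gene or start window could not take a summit away from a gene. The interval of the median strongest distal enrichment, 4.95 to 16.0, was wide, so the rise from 7.43 to 11.2 counted as staying. The tallies therefore do not measure how stable the results are. No paired analysis was possible because the list is pooled and has no value per library, so leaving out a replicate and a replicate block had no input either.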

Other observations

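PDGFRA and KIT are neighbours on chromosome 4 and are followed by KDR, a receptor for vascular endothelial growth factor. The 359.7 kb between PDGFRA and KIT held 16 summits, and the 337.8 kb between KIT and KDR held 1. KDR had a start-site enrichment of 3.05 and a pileup of 64, near the 2.95 and 76 of KIT.

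Beyond the 10 kb limit, the distances from 10 to 50 kb around EGFR held 6 summits with a highest enrichment of 15.9, and those around MET held 5 with a highest of 13.5. The same distances around KIT held 0 summits, and those around IGF1R held 1, with an enrichment of 1.97. Around ERBB2 they held 10 summits with a highest of 17.5, in a stretch with several other genes. These distances were chosen after the list had been examined.

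Other receptors with a strong distal summit, named after their values were seen, were MERTK, a receptor of the TAM family (17.4 distal against 9.85 at the start site), and ALK, a receptor of the nervous system (17.4 against 3.38), whose window of 748813 bp held 30 summits. AXL, another TAM receptor, had the opposite arrangement, with 9.52 and 2643 fragments at the start site and 2.69 at its strongest distal site.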
